A study of Mus musculus with 12 samples.

Results

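H3K27me3 was compared between 2 kinds of female mouse cells that both lack SmcHD1: epiblast stem cells (EpiSCs), a pluripotent line type grown from the early embryo, and embryonic fibroblasts (MEFs), which are differentiated connective tissue cells. All X-linked genes with an H3K27me3 value in both SmcHD1-deficient libraries were taken, 726 of the 952 genes in the deposited table. A further 10 genes had a value in the EpiSC library alone, 28 in the MEF library alone and 188 in neither. The genes with both values had a median length of 19392 bases and those with neither 1960 bases, so short genes are thinly covered. Each gene was described by its MEF minus EpiSC difference on the log2 scale and by its percentile rank within each library.

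The study profiled H3K9me3 and H3K27me3 by chromatin immunoprecipitation and sequencing in these cells and in wild-type counterparts, with 1 library for each mark, genotype and cell type. The SmcHD1-deficient cells were Smchd1 MD1/MD1 (MD1 below) and the comparison cells wild type for Smchd1 (WT below). Both genotypes carried Xist deltaA/+, a heterozygous deletion within Xist, and came from a cross of C57BL6/J with a JF1 x C57BL6/J F1. EpiSCs are labelled with embryonic stage E6.5 and MEFs with E13.5, and the H3K27me3 antibody was the mouse monoclonal CMA323. The cell type and the stage of the embryo therefore change together and cannot be told apart. The labels do not say whether cells were pooled from several embryos. Smchd1 itself and the defining markers of both cell types lie on autosomes, which are not analysed here, so neither the genotype nor the cell type labels could be checked in these data.

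H3K27me3 is laid down by Polycomb repressive complex 2 and marks genes that are held silent by facultative heterochromatin. In female mammals Xist RNA coats an X, which is silenced and gains H3K27me3 along most of its genes. An Xist copy without its A repeat fails to silence in cis, which biases inactivation toward the other X. SmcHD1 is a noncanonical SMC family protein that is needed to keep the inactive X silent, and CpG islands on that X are known to depend on it for DNA methylation.

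Each deposited value is a log2 enrichment for a gene on the X, read here as ChIP over input. A gene's length cancels in that ratio, so levels of different genes can be set side by side. The sources used here do not state which X or allele the values refer to, or what sets the constant that scales each library. The zero of a library depends on that constant, so "under input" below means a deposited value under 0, and counts of such genes in different libraries rest on constants that may not match. Every value could be written as a ratio of whole numbers times a constant for its library, and the constants account for -0.29 of the MEF minus EpiSC difference of each gene. The recovered ChIP numbers summed to 1804080 in MD1 EpiSCs and 1186942 in MD1 MEFs, and the input numbers to 181233 and 327173. They were used for 95% intervals that cover counting error only. With 1 library a side there is no replicate, no test and no spread between cultures, and every difference below is one between these libraries. In bulk chromatin, less mark per cell and fewer cells carrying the mark cannot be told apart.

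The MD1 EpiSCs carried an even, high level of H3K27me3 across the X, whereas the MD1 MEFs held many genes close to that pattern and had a deep tail of genes with little or none. The median level was 4.08 in EpiSCs and 2.38 in MEFs. The middle 50% of genes spanned 0.79 log2 units in EpiSCs and 1.86 in MEFs. At the low end, the 5th percentile was 1.40 in EpiSCs and -2.63 in MEFs, while the 95th percentiles were 4.61 and 3.30. Levels under input were found at 16 genes (2.20%) in EpiSCs and 131 genes (18.0%) in MEFs, and 53 of the latter were at least 4-fold under input. In the WT libraries the widths ran the other way, at 1.77 in EpiSCs and 1.02 in MEFs, with 67 genes (9.60%) and 44 genes (6.3%) under input among the 698 genes with values in all 4 libraries.

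As deposited, 687 of the 726 genes had a lower value in MD1 MEFs and 39 a higher one. The median difference was -1.67, which is 3.17-fold lower in MEFs, and in the WT pair it was -1.88. At least 2-fold lower in MEFs as deposited were 599 genes (82.5%), and at least 2-fold higher were 14 (1.93%). Because an unknown constant enters all of these, genes were compared by their relative difference, which is the MEF minus EpiSC value after the median over the 726 genes was subtracted. On that scale 190 genes (26.2%) were at least 2-fold lower and 82 (11.3%) at least 2-fold higher. In the plot of levels in both libraries the lower genes form a column under the main cloud, where EpiSC levels were high and alike. Centred on the mean of the differences (-2.14) instead, the split was 152 lower and 151 higher. With centring on the half-sample mode (-1.45), an estimate of the densest value that was chosen after seeing the data, it was 216 and 64. The share of lower among called genes was 69.9% with the median, 50.2% with the mean, 77.1% with the mode and 97.7% as deposited.

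**Figure D1:**
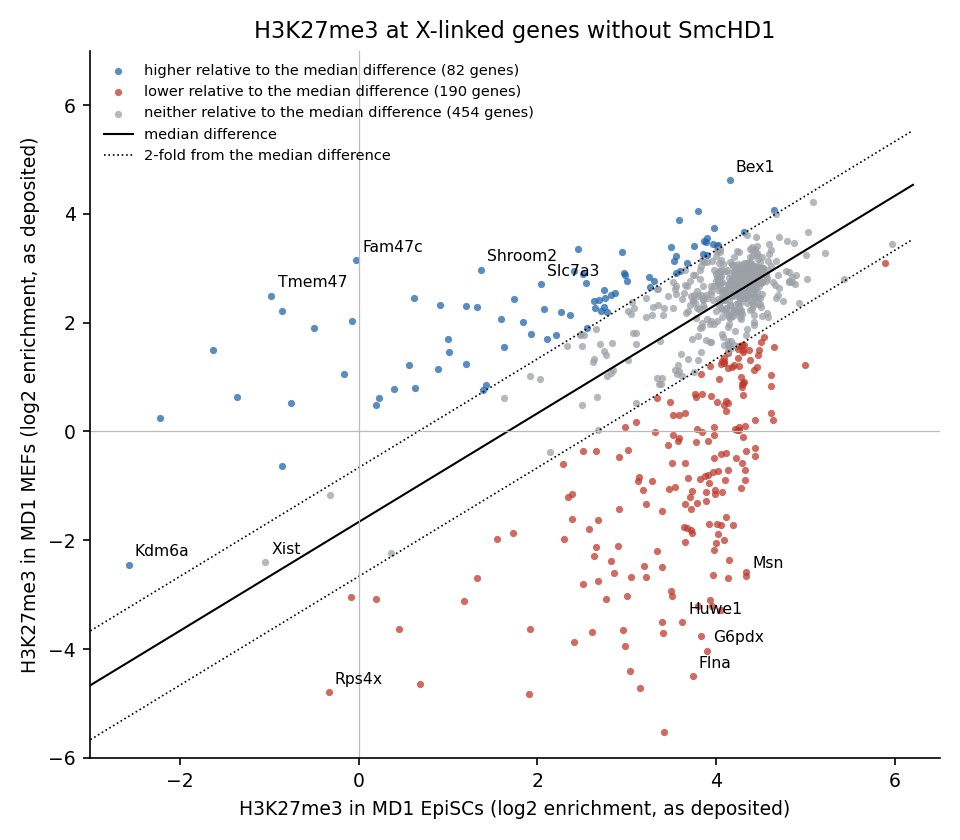
H3K27me3 of the 726 X-linked genes in the MD1 EpiSC library (x axis) and the MD1 MEF library (y axis), both as deposited log2 enrichment, 1 point a gene. The solid line is the median difference of -1.67 and the dotted lines lie 2-fold to either side, with 190 genes below them and 82 above.

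The order of genes was only partly kept between the cell types. Spearman's rho across the 726 genes was 0.50 and Pearson's r 0.38, given as descriptions, since neighbouring genes are not independent and each library shares a depth and an input. In the WT pair rho was 0.69 and r 0.74 over 698 genes, while the MD1 rho over those same genes was also 0.50. In rank, 127 genes (17.5%) stood at least 25 points lower in MEFs and 134 (18.5%) at least 25 points higher. In the highest 25% in EpiSCs and the lowest 25% in MEFs were 8 genes, among them Rbm3, Ocrl, Fmr1, Zfp275, Tktl1, BC065397 and Ofd1. The reverse held for 11 genes: Nudt11, Eras, Dcaf12l1, Cxx1a, Slitrk4, Fam47c, Chic1, Armcx3, Shroom2, Gpr143 and Kctd12b.

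The genes with little H3K27me3 in MD1 MEFs were mostly genes with CpG-rich promoters. The 250 bases upstream of each start site were taken from RefSeq (GRCm38.p6) and matched by symbol or synonym for 611 of the 726 genes (84.2%). CpG content was measured as the observed number of CG dinucleotides over the number given by the C and G content, and a ratio of at least 0.6 was called CpG-rich. Of all 1223 X-linked windows of that table, 318 (26.0%) were CpG-rich and 89.0% held at least 1 CG. The windows below are examples, from genes called lower (Huwe1 and Msn) and higher (Bex1 and Tmem47) in MEFs relative to the median difference. They read 5′ to 3′ on the gene's strand, and capitals mark each CG, which reads the same on both strands and cannot overlap itself.
Huwe1: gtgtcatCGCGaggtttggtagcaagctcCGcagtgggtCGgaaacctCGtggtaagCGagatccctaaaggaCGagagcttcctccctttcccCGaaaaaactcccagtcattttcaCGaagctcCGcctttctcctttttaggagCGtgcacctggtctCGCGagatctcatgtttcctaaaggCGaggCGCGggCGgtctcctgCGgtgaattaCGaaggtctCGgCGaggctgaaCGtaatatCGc
Msn: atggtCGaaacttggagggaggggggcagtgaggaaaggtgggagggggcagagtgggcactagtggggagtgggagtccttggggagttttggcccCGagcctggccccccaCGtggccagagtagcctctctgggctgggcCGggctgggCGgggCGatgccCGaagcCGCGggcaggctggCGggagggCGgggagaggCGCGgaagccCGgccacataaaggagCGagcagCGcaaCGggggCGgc
Bex1: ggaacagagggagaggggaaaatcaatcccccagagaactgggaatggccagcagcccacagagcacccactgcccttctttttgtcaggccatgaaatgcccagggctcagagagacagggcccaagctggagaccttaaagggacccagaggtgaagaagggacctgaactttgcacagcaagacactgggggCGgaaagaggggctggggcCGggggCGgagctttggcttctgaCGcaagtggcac
Tmem47: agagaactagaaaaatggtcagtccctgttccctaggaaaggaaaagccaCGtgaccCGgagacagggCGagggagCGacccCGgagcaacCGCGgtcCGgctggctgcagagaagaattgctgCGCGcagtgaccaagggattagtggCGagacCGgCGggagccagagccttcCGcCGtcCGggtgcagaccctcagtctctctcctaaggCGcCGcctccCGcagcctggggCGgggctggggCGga
Huwe1, a ubiquitin ligase gene, has 23 CG in this window and a ratio of 1.19, and Msn, which encodes the membrane to actin linker moesin, has 18 and 0.64. Bex1, a small brain-expressed adaptor gene, has 4 CG and a ratio of 0.19. Tmem47, a membrane protein gene, has 21 and 0.79. It was chosen as the exception, since its promoter is CpG-rich and its level was higher in MEFs.

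Huwe1 (chromosome X, 148237825 to 148369961, mm9, plus strand) had 3.62 in MD1 EpiSCs and -3.51 in MD1 MEFs. Msn (93291384 to 93363892, plus strand) had 4.33 and -2.66. Both were far above input in EpiSCs and under it in MEFs, while their WT MEF values were 2.74 and 2.21. Bex1 (132748511 to 132750052, minus strand) had 4.15 in EpiSCs and 4.62 in MEFs, the highest MEF value of all 726 genes, on an input number of 6 in EpiSCs and 4 in MEFs. Tmem47 (78315983 to 78343214, plus strand) had -0.98 and 2.50. The relative differences were -5.47 for Huwe1 (counting interval -5.99 to -4.95), -5.33 for Msn (-5.91 to -4.75), 2.14 for Bex1 (0.24 to 4.03) and 5.14 for Tmem47 (4.52 to 5.76).

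Over all matched genes, the median CpG ratio was 0.70 in the genes that were lower, 0.39 in those that were neither and 0.33 in those that were higher. CpG-rich windows were found at 118 of 168 lower genes (70.2%), 97 of 380 neither (25.5%) and 14 of 63 higher (22.2%), against 229 of 611 (37.5%) in all. Read from the other side, 118 of the 229 CpG-rich genes (51.5%) were lower, and 50 of the 382 CpG-poor genes (13.1%). The EpiSC medians of the 2 promoter classes were close, 3.94 for CpG-rich and 4.14 for CpG-poor genes. In MD1 MEFs they parted to 1.05 and 2.55, and 86 CpG-rich genes (37.6%) against 32 CpG-poor genes (8.38%) lay under input. The WT MEF medians of the same classes were 2.11 and 2.09. The share of lower genes went from 6.48% below a ratio of 0.2 through 9.79%, 22.1% and 46.0% to 59.8% at 0.8 and above. RefSeq windows and the deposited genes come from different builds, so a start site may differ for some genes, and the window is a property of the sequence with no methylation measured here.

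**Figure D2:**
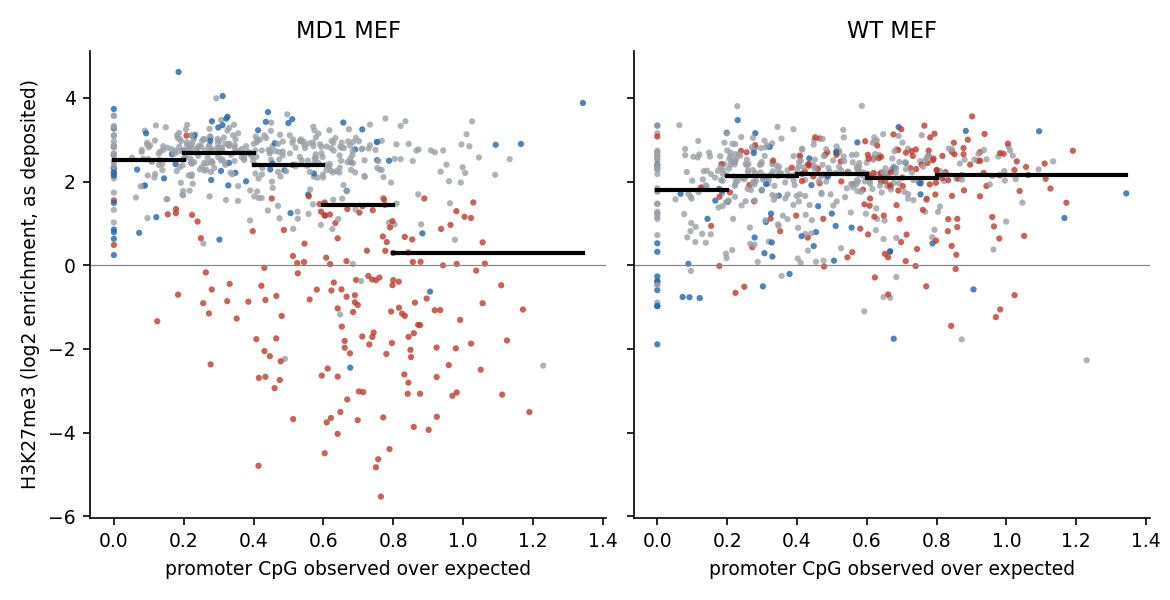
H3K27me3 in MD1 MEFs (left) and WT MEFs (right), as deposited log2 enrichment, against the CpG observed over expected ratio of the RefSeq promoter window, 1 point a gene with a window. Red, blue and grey points are genes lower, higher or neither in MD1 MEFs relative to the median difference, and black bars are medians within steps of the ratio: in MD1 MEFs they go from 2.51 in the lowest step to 0.30 in the highest, and in WT MEFs from 1.79 to 2.15.

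Members of this list and of those below were chosen with earlier results of these data known, so their counts are descriptions and no separate support. Among the genes of the housekeeping type that the inactive X normally silences, all 7 with a value were lower in MD1 MEFs, against 26.2% of all genes. Their median relative difference was -3.18, against 0 over all genes by construction, and their median level was 4.11 in EpiSCs and -0.72 in MEFs. G6pdx, the first enzyme of the pentose phosphate pathway, had 3.90 in EpiSCs and -4.03 in MEFs. Hprt, a purine salvage enzyme gene, had 4.11 and -0.39, and Pgk1, a glycolytic enzyme gene, had 4.13 and -0.72. Atrx, a chromatin remodeller gene, had 4.22 and -0.49. Gla, which encodes a lysosomal galactosidase, was nearest to input at 3.84 and -0.0022. All 7 lay under input in MD1 MEFs, while the WT pair gave a median relative difference of -0.12 with none of the 7 past 2-fold.

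The list of general transcription genes, which is wider than the general machinery and holds the factor gene Zfx, divided into 2 sets. Of 8 with a value, 5 were lower (26.2% over all genes): Zfx, Taf1, Med14, Hcfc1 and Med12. Zfx, a zinc finger transcription factor gene, had 3.97 in EpiSCs and -2.64 in MEFs. Taf1, the large subunit of TFIID, had 2.77 and -3.07, and Med14 of the Mediator complex had 3.04 and -2.67. The other 3 kept the typical difference, with relative differences of 0.07 for Taf7l, 0.09 for Taf9b and 0.32 for Tbl1x. The list's count was 1 when the lowest 10% of genes by mean value were left out, since Zfx, Taf1, Med14 and Hcfc1 are among those genes.

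Genes for ribosomal proteins and translation initiation were lower in 5 of 5 cases, against 26.2% of all genes, but on small numbers. Rps4x had -0.33 in EpiSCs and -4.79 in MEFs, and Rpl10 had 0.69 and -4.64, each on a MEF ChIP number of 1. The counting interval of the relative difference was -5.82 to 0.23 for Rps4x and -6.70 to -0.62 for Rpl10. Rpl36a had 1.92 and -3.64, Eif2s3x 1.18 and -3.12, and Eif1ax 4.08 and 1.28. Rps4x, Rpl10, Rpl36a and Eif2s3x were thus low in EpiSCs already, where the list's median was 1.18. The count was 0 with a pseudocount of 1. It was 1 without the lowest 10% of genes by mean value, which include Rps4x, Rpl10, Rpl36a and Eif2s3x.

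Genes that act on chromatin and ubiquitin followed the same division, in part through shared members. Atrx is also in the housekeeping list, as are Huwe1 and Rlim of the ubiquitin list. Of 19 chromatin regulators 11 were lower and 2 higher, with a median relative difference of -1.55. Over all genes 26.2% were lower and 11.3% higher. Morf4l2, a subunit gene of histone acetyltransferase complexes, had 3.95 in EpiSCs and -3.21 in MEFs, and the histone demethylase gene Phf8 had 3.91 and -0.80. The chromatin genes near the typical difference included Bcorl1 at -0.01, Scml2 at -0.04 and Smarca1 at 0.19. Of 13 ubiquitin pathway genes 7 were lower and 1 higher. The count of lower ones was 4 without the lowest 10% of genes by mean value, since Huwe1, Usp9x and Uba1 are among those genes. Usp9x, a deubiquitinase gene, had 3.80 and -3.20, and Uba1, which encodes the main ubiquitin activating enzyme, had 2.95 and -3.65. Rlim, the ubiquitin ligase that promotes Xist expression, had 4.28 and -1.03. In the cohesin list Stag2 had 4.11 and -1.57 and Smc1a 3.88 and -1.11, and Hdac8, the deacetylase that acts on cohesin, had 4.13 and 1.61 with a relative difference of -0.85.

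**Figure D3:**
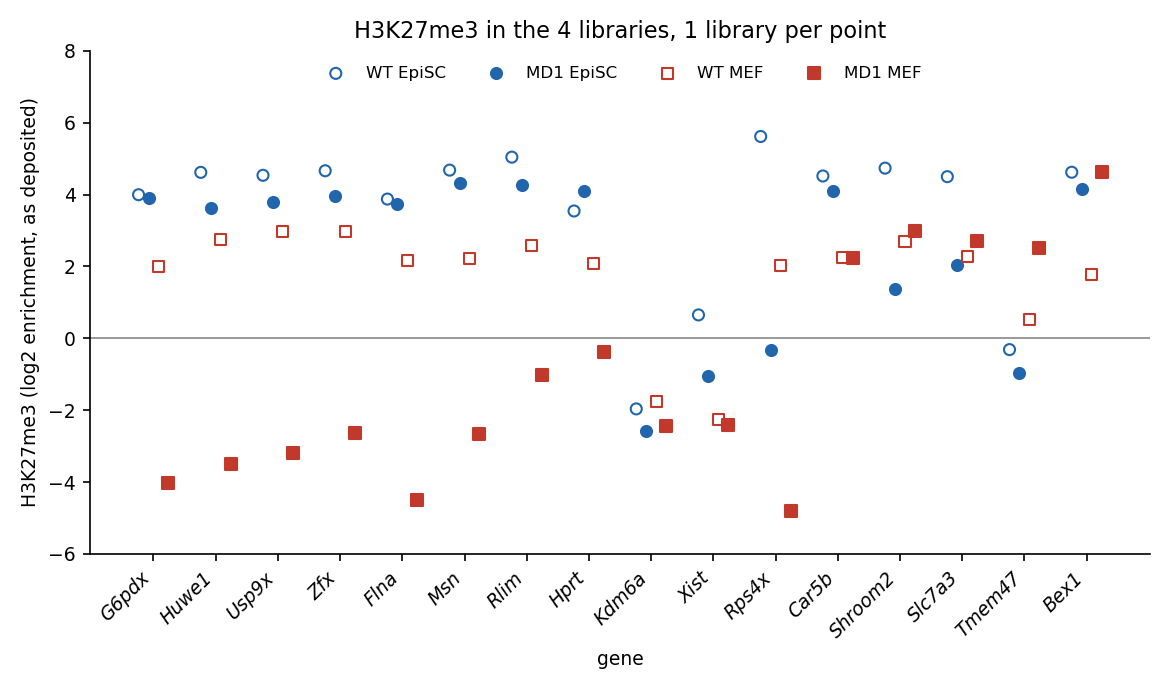
H3K27me3 (y axis, as deposited log2 enrichment) of named genes in the 4 H3K27me3 libraries, 1 library a point with no replicate. The MD1 MEF squares of G6pdx, Huwe1, Usp9x, Zfx, Flna, Msn, Rlim and Hprt lie under 0 while their other 3 points lie above it, and Shroom2 and Slc7a3 have their lowest point in MD1 EpiSCs.

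Of 31 metabolic and mitochondrial genes 16 were lower and none higher, against 26.2% and 11.3% of all genes. The median relative difference was -1.05, and G6pdx, Pgk1 and Hprt are also in the housekeeping list. Cox7b, a respiratory chain subunit gene, had 3.99 in EpiSCs and -2.05 in MEFs, and Timm8a1, a mitochondrial import gene, had 4.09 and -1.99. Aifm1, a mitochondrial oxidoreductase gene, had 4.31 and 0.90, so that it was lower without reaching input. The other 15 lay within 2-fold of the typical difference, including Maoa at 0.31, Otc at 0.03 and Alas2 at 0.27. Maoa encodes a monoamine oxidase, Otc a urea cycle enzyme and Alas2 the erythroid enzyme of haem synthesis. Only 9 of the list were lower when both input numbers had to reach 20, a filter that takes members out of the list.

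The extracellular matrix and mesenchymal list, which holds genes used by fibroblasts, held a few deep differences beside many typical ones. Of 18 genes 6 were lower and none higher, a count near the 26.2% over all genes, and the median relative difference was -0.29. Flna (71468800 to 71491873, minus strand), which encodes the actin crosslinker filamin A, had 3.74 in EpiSCs and -4.49 in MEFs, a relative difference of -6.57 (-7.77 to -5.36). Timp1, a metalloproteinase inhibitor gene, had 3.88 and -1.27, and Bgn, which encodes the proteoglycan biglycan, had 4.28 and -0.58. Gpc4, a glypican gene, had 4.47 and 1.41. In contrast Col4a5 and Col4a6, basement membrane collagen genes, lay at -0.11 and 0.09, and Tnmd at -0.02. With centring on the mean the sign of this list's median turns, as it does for the neural, immune, Ssx, Zfp and solute carrier lists, so no direction is given for those medians.

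Lists of genes used in other lineages sat near the typical difference. Their shares of lower genes were below or near the 26.2% over all genes, except among the solute carrier genes. Of 24 neural genes 5 were lower and 2 higher, with a median of -0.14, and 2 were lower among genes that overlap no other gene. Glra4, a glycine receptor gene, had 4.32 in EpiSCs and -0.70 in MEFs. Glra4 overlaps BC065397 (4.44 and -0.45), so reads of these genes cannot be told apart. Of 24 immune genes 6 were lower and none higher, with a median of -0.05. Xiap, an inhibitor of apoptosis, had 4.15 and -2.37, and the kinase gene Irak1 4.02 and -1.89, while the receptor genes Tlr7, Tlr8 and Cxcr3 lay at 0.21, -0.14 and -0.17. The immune count was 3 with a pseudocount of 1. Of 12 solute carrier genes 5 were lower and 1 higher, and 2 were lower among genes that overlap no other gene. Slc35a2, a UDP-galactose transporter gene, had 3.40 and -3.71. Of 8 Zfp genes 2 were lower, Zfp275 at 4.61 and 0.34 and Zfp182 at 3.97 and -0.06.

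**Figure D4:**
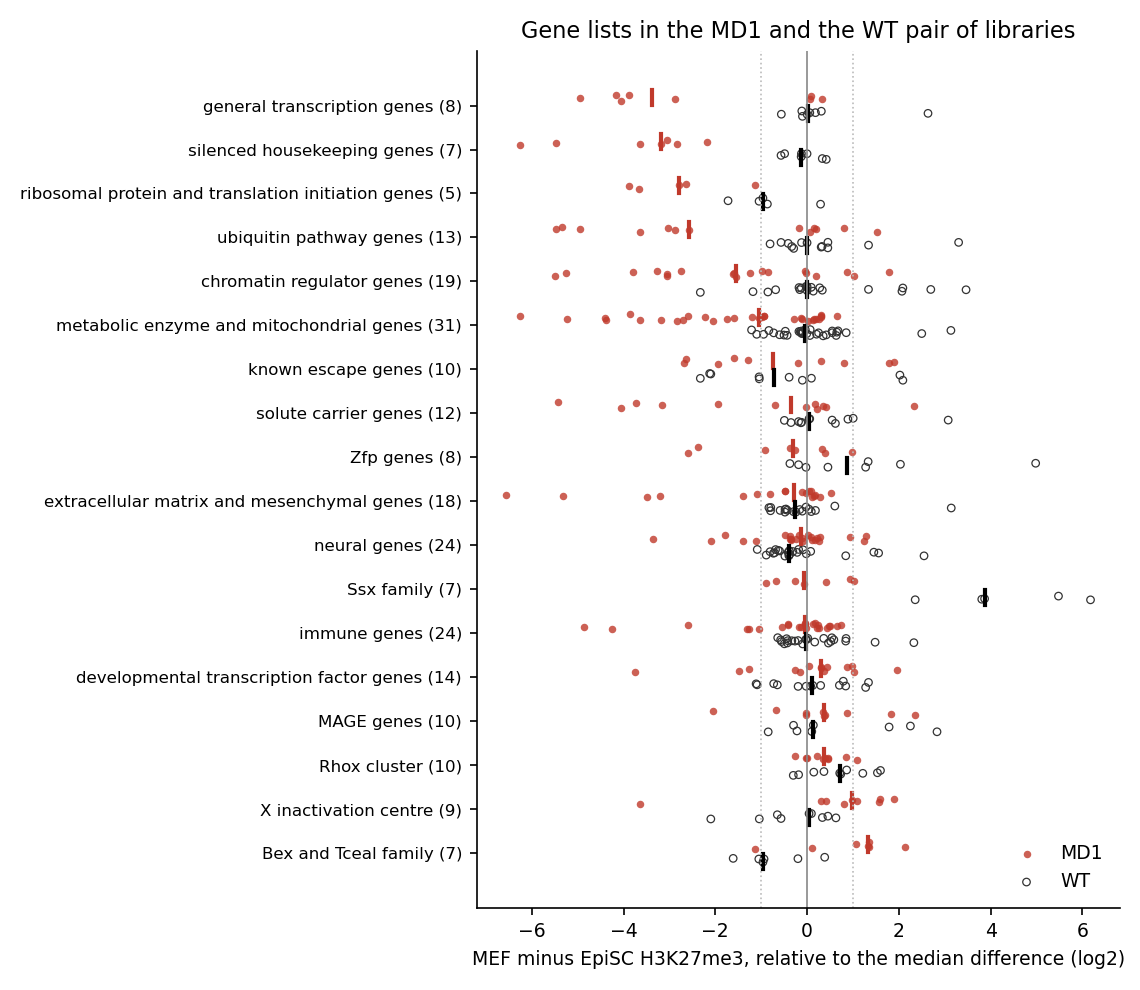
Relative MEF minus EpiSC difference (x axis, log2) of the members of each gene list with at least 5 measured genes, 1 point a gene, in the MD1 pair (red) and the WT pair (open circles), with list medians as bars and the number of measured members in brackets. Dotted lines mark 2-fold: the MD1 medians of general transcription, silenced housekeeping, translation and ubiquitin genes lie between -3.38 and -2.56, and those of the same lists in WT between -0.96 and 0.03.

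Developmental transcription factors and germ line families mostly lay within 2-fold of the typical difference. Of 14 developmental factors 3 were lower and 2 higher, with a median of 0.30. These counts are near the shares over all genes, 26.2% lower and 11.3% higher. Nr0b1 had 4.70 in EpiSCs and 2.88 in MEFs, and Gata1 3.72 and 2.48. Esx1, a homeobox gene of the placenta and testis, had 3.58 and 3.88, and its relative difference was 1.96 (1.09 to 2.84). The lower factors were Tfe3, a factor with broad expression (2.67 and -2.74), Dach2 (3.84 and 0.69) and Foxp3 (3.10 and 0.18). The Rhox reproductive homeobox genes had 10 of 30 members measured, of which none was lower and 1, Rhox1, was higher (3.85 and 3.27). In the Ssx family 7 of 9 were measured, none was lower and Ssxb3 was higher, with EpiSC levels of 2.52 to 4.34 and MEF levels of 1.13 to 2.15. Of 10 measured MAGE genes Maged1 was lower (3.46 and -0.26), and Mageb16 (1.84 and 2.01) and Magea8 (1.74 and 2.43) were higher. Xlr, the single measured gene of the Xlr and Slx families, had 4.51 and 3.22. Reads of such near-identical copies could have been split between members, so these values are uncertain.

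Among genes that are known to escape X inactivation, median H3K27me3 was low in both cell types. The median of 10 genes was 0.05 in EpiSCs and -2.14 in MEFs, and 9 lay under input in MEFs. Kdm6a, which encodes an H3K27 demethylase, had the lowest EpiSC value of all 726 genes, -2.57, and -2.45 in MEFs. Ddx3x, an RNA helicase gene, had -0.09 and -3.04, and Kdm5c, an H3K4 demethylase gene, had 0.19 and -3.07. Not all members were low in EpiSCs: Utp14a, a ribosome biogenesis gene, had 2.92 and -1.42, Pbdc1 had 1.73 and -1.87, and Eif2s3x had 1.18 and -3.12. Car5b, a carbonic anhydrase gene, had 4.11 and 2.24 and was the 1 member above 0 in MEFs. The list had 5 lower and 2 higher members of 10, against 26.2% and 11.3% of all genes. However, the count of lower ones was 3 with a pseudocount of 0.1 and 1 with a pseudocount of 1. It was 0 without the lowest 10% of genes by mean value, since all 5 are among those genes. Under input in both cell types were 6 genes in all: Ddx3x, Kdm6a, Rps4x, Xist, Jpx and Ftx.

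At the X inactivation centre Xist itself had -1.04 in EpiSCs and -2.40 in MEFs, a relative difference of 0.31 (-0.35 to 0.97). The list had 1 lower and 4 higher of 9 members, against 26.2% and 11.3% of all genes. Its median relative difference was 0.98, which was -0.68 as deposited. Chic1, Tsx and Tsix, which lie beside or across Xist, were higher together. Chic1 had 2.98 and 2.88, Tsx 3.68 and 3.10, and Tsix, the antisense gene across Xist, 1.63 and 1.56. Xist and Tsix overlap, and a library without strand cannot tell their reads apart. Jpx, a noncoding activator gene of Xist, had -0.85 and -0.63, and Ftx had -0.32 and -1.18.

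The Bex and Tceal family, short genes of which several lie together on the X, leaned the other way from the housekeeping genes. Of 7 measured members 5 were higher and 1 lower, against 11.3% and 26.2% of all genes. The median relative difference was 1.32 (-0.35 as deposited) and the WT median -0.95. Wbp5 had 2.83 in EpiSCs and 2.51 in MEFs, and Ngfrap1 3.55 and 3.23. Tceal5 had 3.90 and 3.55 and Tceal3 4.02 and 3.43. The intervals of Wbp5 (0.25 to 2.45) and Bex1 lay above the median difference, whereas those of Tceal3, Tceal5 and Ngfrap1 included it. Tceal6, the lower member, had 5.89 and 3.10 with an interval of -2.48 to 0.23.

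By the rule for naming single genes, which asks for a level above the library median in the cell type where the gene is higher and for input numbers of at least 20, the lowest relative differences belonged to 10 genes that include Msn, Plxna3, Xiap, Stag2, Rlim, Cstf2, Glra4, BC065397 and Bgn. They ran from -5.33 to -3.20, and all 10 lay under input in MEFs. Outside that rule, and chosen after their values were seen, Fam50a, Flna, G6pdx, Ubl4 and Nono had relative differences of -7.28 to -5.76. They fall outside the rule since their EpiSC levels of 3.03 to 3.90 were under the median of that library. Fam50a had 3.41 in EpiSCs and -5.53 in MEFs, the lowest MEF value of all, on a MEF ChIP number of 1, so its relative difference of -7.28 has an interval of -10.17 to -4.38. A MEF ChIP number of 3 or fewer stood behind 14 of the 190 lower genes and behind no other gene of the 726.

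In the higher direction the same rule named Tmem47, Gm773, Shroom2, Magea8, Slc7a3, Kctd12b, Nudt11, Eras, Esx1 and Slitrk2. Shroom2, which encodes an actin binding protein of epithelia (149044052 to 149204029, minus strand), had 1.36 in EpiSCs and 2.98 in MEFs on input numbers of 1004 and 1391, so its relative difference of 3.28 had the narrow interval of 3.13 to 3.42. Slc7a3, a cationic amino acid transporter gene, had 2.04 and 2.71. In WT EpiSCs these genes had 4.73 and 4.50, so that MD1 EpiSCs were the library in which both were low. Eras, a Ras-family gene of embryonic stem cells, had 2.95 and 3.29 and overlaps another gene of the table. Slitrk2, the last of these, was under 2-fold at 0.93. In rank, Tktl1, Zfp275, Ocrl and BC065397 stood lower in MEFs by the most, between -76.0 and -71.4 points. Fam47c, Cxx1a, Shroom2, Eras and Kctd12b stood higher by the most, between 76.0 and 90.7 points, of which Fam47c and Cxx1a rested on input numbers of 7 or fewer.

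Higher as deposited by at least 2-fold were 14 genes: Tmem47, Fam47c, Samt2, Obp1a, Samt4, Gm16404, 3830403N18Rik, 4930524N10Rik, Gm773, Shroom2, Gm4907, Gm732, Gm382 and Gm5938. Most were genes with little H3K27me3 in EpiSCs, and 10 of the 14 lay under input there, against 16 of all 726 genes (2.20%). A low EpiSC value helps a gene to pass this call, so that count is largely set by the call. In MD1 EpiSCs 10 of the 14 had H3K9me3 of at least 2-fold over input, against 39 of all 726 genes (5.37%). Over the relative classes, that level of H3K9me3 was present in MD1 EpiSCs at 22 of 82 higher genes (26.8%), 16 of 454 neither (3.52%) and 1 of 190 lower (0.53%). In MD1 MEFs it was present at 9, 11 and 2 genes, against 22 of 726 (3.03%) in all. The marks of a cell type share an input, which enters both values. The higher genes were also short, with a median of 5285 bases against 18831 for the lower genes, and 41 of the 82 were under 5 kb.

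The lower genes lay in clusters along the X. They formed 84 runs of neighbouring measured genes, of which 44 were single genes, and 116 of the 190 genes sat in runs of 3 or more. The longest, 17 genes from Tktl1 to G6pdx (chromosome X, 71422598 to 71699117), spans 276.5 kb and holds Flna, Emd, Rpl10, Atp6ap1, Fam50a, Plxna3 and Ikbkg among others. Its median was 3.64 in MD1 EpiSCs and -2.94 in MD1 MEFs, against 2.30 in WT MEFs. The second, 13 genes from Ndufb11 to Zfp182 (20192452 to 20639164), includes Uba1, Araf, Syn1, Timp1 and Elk1, and had 3.88 and -0.86. The third, 8 genes from Tfe3 to Timm17b (7339787 to 7484778), had 3.11 and -2.18. These are gene-dense stretches in which genes overlap or share promoters, so neighbours are not independent.

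The higher genes formed 47 runs, 31 of them single genes. The longest, 8 genes from Ubqln2 to Magea8 (149932775 to 151430393), had a median of 1.37 in EpiSCs and 2.07 in MEFs, and the 6 genes from Obp1a to Gm8787 (75330844 to 76603407) had 1.63 and 2.23. The 4 genes from Gm16404 to 1600025M17Rik (52804773 to 53573841) had 0.28 and 2.16. In these 3 runs the EpiSC medians were thus below those of all genes and the MEF medians close to theirs. By 10 Mb intervals with at least 20 genes, the share of lower genes ranged from 7.41% of 27 genes at 60 to 70 Mb to 56.5% of 23 at 20 to 30 Mb.

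**Figure D5:**
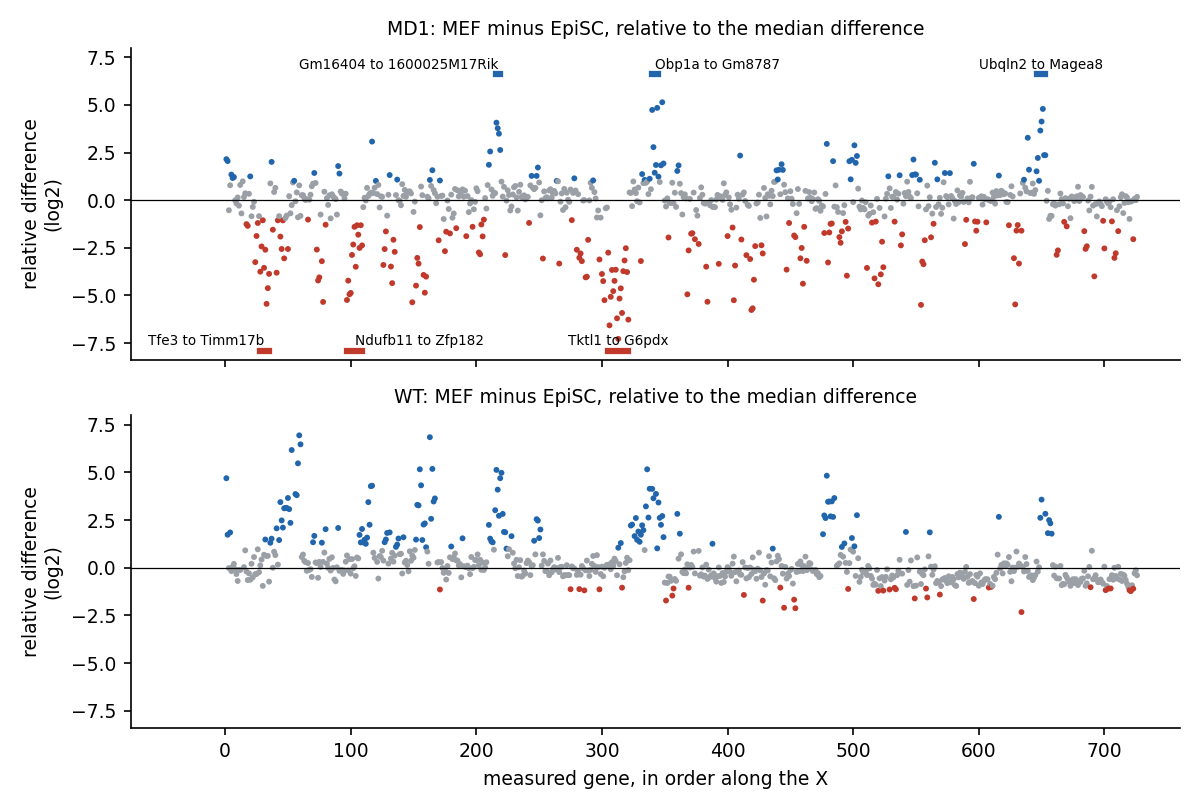
Relative MEF minus EpiSC difference (y axis, log2) of the 726 genes in their order along the X (x axis, gene number), in the MD1 pair (top) and the WT pair (bottom, 698 genes), each centred on its own median. Red and blue points are at least 2-fold lower or higher in that pair, and bars name the 3 longest runs of each direction in MD1, where the run from Tktl1 to G6pdx holds 17 lower genes.

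The WT pair showed where the pattern differed with SmcHD1 present, although the difference between the pairs was not tested. In the WT pair 37 of 698 genes (5.3%) were at least 2-fold lower in MEFs relative to the median and 137 (19.6%) higher. Of the 188 genes lower in MD1 with WT values, 13 (6.91%) were also lower in WT and 31 (16.5%) were higher, and their WT median was 0.05. Of the 75 genes higher in MD1 with WT values, 38 (50.7%) were also higher in WT and 3 were lower. In the opposite reading, 35.1% of the genes lower in WT were lower in MD1, and 27.7% of those higher in WT were higher in MD1. Above input in MD1 EpiSCs and under it in MD1 MEFs were 125 genes (17.2%). Of the 124 with a WT MEF value, 116 were above input in WT MEFs. Over all 698 genes 44 (6.3%) lay under input in WT MEFs, so the count of 116 is near the share over all genes.

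Counting error was small beside most of these differences. The 95% interval of the relative difference had a median half-width of 0.48 over all genes. It left out 0 for 185 of the 190 lower genes and 71 of the 82 higher ones, against 420 of all 726. Those classes were called on the size of the same difference, so their counts are largely set by the call and are no separate support. Lower genes had a median EpiSC input number of 87 and higher genes of 25, and an input number under 20 in either library was found for 26 lower, 36 higher and 138 genes in all. Another gene of the table overlapped 36 of the lower, 7 of the higher and 99 of all genes. The intervals hold no error between cultures or preparations, for which these libraries give no measure.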

How the data were processed

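Chromatin was immunoprecipitated with a mouse monoclonal H3K27me3 antibody and sequenced beside input, per the labels. Cutadapt, BWA and SAMtools were used with mouse build mm9, per the submitters' processing notes, with versions not given in the sources used here, nor the counting rule. Values were deposited by the authors as log2 enrichment, 1 per gene and library. Deposited starts count from 0, and starts printed here count from 1.

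Whole-number ChIP and input pairs were recovered from the values (100% of genes). Tested on simulated counts, 100% of genes were recovered, 82.4% of 698 exactly for MD1 EpiSCs and 83.2% of 725 for MD1 MEFs. In a simulated MD1 MEF minus EpiSC comparison of 671 genes, 100% of genes made 4-fold lower, 28.1% of those made 2-fold lower and 0.82% of unchanged genes were called lower. The simulation gave every gene of a library the same enrichment before the planted change and held counting error only. These shares are therefore no error rates for the real calls. Recovered pairs are the smallest that give a value, so real counts may be multiples.

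No test was run, with 1 library a group. Differences, ranks and intervals were computed with Python 3.11.15, pandas 2.3.3 and NumPy 2.4.6, and figures with matplotlib 3.10.9. Members and lists were chosen with earlier results of these data known. Some genes are in several lists, so the counts of different lists are not independent. Single genes named are the 10 lowest and the 10 highest relative differences among genes above the library median where higher and with input numbers of at least 20, the 5 largest rank differences each way, list members and the ends of the 3 longest runs each way; other genes, including those that changed between the highest and lowest 25%, members of runs and the 14 genes higher as deposited, were chosen after their values were seen. Some genes that the rule names are not reported here. Alternatives were pseudocounts of 0.1 and 1, filters on low values, input and length, other gene sets, centrings and thresholds.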

Additional observations from a re-analysis of the deposited data

Results flagged for a closer look

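In 16 of the named genes or members of the longest runs, the relative MEF minus EpiSC difference was at least 2-fold in MD1 and at least 2-fold in the opposite direction in WT. Each pair was centred on its own median, which was -1.67 in MD1 and -1.88 in WT. With 1 library in each group the difference between the genotypes was not tested. Of these genes 15 were lower in MD1 MEFs and higher in WT MEFs on the relative scale. As deposited, 8 of the 15 had a higher value in WT MEFs than in WT EpiSCs and 7 a lower one. The 8 were Xiap (-4.85 in MD1 and 2.33 in WT, relative), Suv39h1, an H3K9 methyltransferase gene (-3.80 and 2.07), Brwd3, a bromodomain gene (-3.27 and 3.46), Cul4b, a ubiquitin ligase scaffold gene (-3.03 and 3.30), Rbm3, a cold-induced RNA binding protein gene (-2.56 and 2.48), Zfp182 (-2.37 and 2.03), the helicase gene Ddx3x (-1.29 and 2.02) and Hmgn5, a nucleosome binding protein gene (-1.24 and 2.70). The 7 were Fam50a (-7.28 and 1.05), Lage3 (-4.62 and 1.30), the cohesin gene Stag2 (-4.01 and 1.08), the kinase gene Pim2 (-2.60 and 1.48), Ube2a, a ubiquitin conjugating enzyme gene (-2.56 and 1.34), Uxt (-2.50 and 1.72) and A230072C01Rik (-1.31 and 1.33). In the opposite direction was Wbp5, with 1.35 in MD1 and -1.61 in WT. The counting interval of the MD1 relative difference was -2.83 to 0.35 for Hmgn5, which includes the median difference. That of Ddx3x was -2.55 to -0.02.

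Over all genes 31 were lower in MD1 and higher in WT on the relative scale, and 3 the reverse. The 31 had a median H3K27me3 of 0.51 in WT EpiSCs, 1.53 in WT MEFs, 3.65 in MD1 EpiSCs and -0.75 in MD1 MEFs. Their median H3K9me3 in WT EpiSCs was 3.80, against 2.03 over all genes. At least 2-fold over input in that mark were 29 of the 31, against 449 of all 726 genes. Any gene without a WT EpiSC value counts among the 726 as not reaching it, and 698 of the 726 had a value in all 8 ChIP libraries. The part of H3K9me3 in the difference was not tested.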

How the results depend on the processing

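No paired analysis was possible because each group has 1 library, and leaving out a library leaves no comparison. The median difference was -1.67 and became -1.49 with a pseudocount of 1. The 14 genes higher as deposited were 9 with a pseudocount of 1, 6 without the lowest 10% of genes, 8 among genes of at least 5 kb and 7 at 4-fold, and the 599 lower were 270 at 4-fold. Relative to the median difference, the 82 higher genes were 49 with input numbers of at least 20, 49 among genes of at least 5 kb, 151 with centring on the mean and 28 at 4-fold, and the 190 lower were 125 at 4-fold. The 8 and 11 genes that changed between the highest and lowest 25% were 14 and 17 without the lowest 10% of genes, and the rank counts of 127 and 134 were 57 and 66 at 40 points. Of the counts of lower list members under all settings, 133 stayed within 1.5 times and 29 did not, and the latter include the counts given in the text. Genes that overlap no other gene and the half-sample mode were settings chosen after seeing the data. Depth limits short genes and the lowest MEF values, where few ChIP counts stand behind a gene.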

Other observations

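Genes with a value in a single MD1 library were described apart, since they have no difference. The genes named from them were chosen after their values were seen. The 28 genes measured in MD1 MEFs alone had a median length of 4552.5 bases and a median H3K27me3 of 2.41, between -0.51 and 3.40. They include Pou3f4, a POU factor gene of the inner ear and brain, at 2.58 and the phosphatase gene Dusp9 at 2.93. Under input were Slc25a5, which encodes a mitochondrial ADP/ATP carrier, at -0.51, the ribosomal protein gene Rpl39 at -0.32 and the ubiquitin ligase gene Pja1 at -0.25. The 10 genes measured in MD1 EpiSCs alone had a median length of 2333 bases and a median of 3.55. Among them were Bex2 at 3.84, Tceal7 at 4.67, Tceal1 at 2.64 and Nap1l2, a nucleosome assembly gene of neurons, at 3.99.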
